A study of Bos taurus with 6 samples.

Results

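Genes of the basement membrane were followed in longissimus dorsi, the long muscle of the loin, of Chinese Red Steppe bulls killed at 1 month or at 24 months of age. The list holds 9 genes: the collagen IV chains COL4A1 and COL4A2, the laminin chains LAMA2, LAMA4, LAMB1 and LAMC1, the nidogens NID1 and NID2, and the perlecan gene HSPG2. Every probe set whose only gene symbol in the platform's annotation is one of these was taken. That gave 14 probe sets for 7 of the 9 genes, out of 24128 probe sets on the bovine array. COL4A2 and LAMA2 were each named by 0 probe sets and were not analysed here. All animals were males of 1 breed on a standard diet. Total RNA of 3 bulls was mixed into each pool and each pool was measured on 1 array, so 18 bulls gave n = 3 pools at each age. The labels number the younger pools 1, 2 and 3, and the older pools 2, 3 and 4. A pool averages its 3 bulls, so the errors below are the spread between pools and not between single animals.

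A basement membrane is the thin sheet of matrix that wraps every muscle fibre and underlies the endothelium of capillaries. Laminin heterotrimers of an alpha, a beta and a gamma chain assemble at the cell surface, where integrins and dystroglycan bind them. Collagen IV forms a second, covalently linked network, and nidogens and perlecan connect the networks to each other. In muscle fibres the main alpha chain is LAMA2, whose loss causes a congenital muscular dystrophy, while LAMA4 is the alpha chain typical of vessels and nerve. COL4A1 and COL4A2 lie head to head on the chromosome and are transcribed from a shared promoter in mammals.

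In the older bulls 4 of the 7 measured genes were called lower on their brightest probe set, COL4A1, LAMB1, LAMC1 and NID2, where 5.73% of all 6423 genes tested were called lower. The falls were between 1.84-fold (LAMC1) and 2.73-fold (NID2), with n = 3 pools per age. NID1 was lower in every 24-month pool than in every 1-month pool but did not pass the test, and LAMA4 and HSPG2 overlapped between the ages. Further probe sets of COL4A1 and LAMC1 showed no called fall. The calls rested on few pools: member probe sets called lower numbered 1, 0 and 0 without 24-month pools 2, 3 and 4. They numbered 1 with an RNA quality ratio, the actin ratio described below, as a covariate. Calls dropped over the whole array too. There 659 probe sets were called lower with all pools, 122, 99 and 94 without 24-month pools 2, 3 and 4, and 341 with the covariate.

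Values are linear intensities normalized by the authors. Changes are given as 24 months minus 1 month on the scale log2(intensity + 16), and ± gives limma's standard error. Folds were taken from these changes. The added 16 understates changes, most of all those of dim probe sets. With 1 added instead, LAMB1 gave -1.47 in place of -1.36 and NID2 -1.54 in place of -1.45. Testing was limited to probe sets with a present call on 3 or more of the 6 arrays, and 12 of the 14 passed that filter. P-values were adjusted by Benjamini-Hochberg over all 13204 tested probe sets, and a change was called at an adjusted p under 0.05. Of the 12 probe sets 4 were called lower (33.3%), against 4.99% of all tested probe sets (19.0% in either direction). The change was below 0 for 8 of the 12, beside 44.3% of all tested. By limma 0 of the 12 were called higher, and 0 were higher at an unadjusted p under 0.05. Of all tested probe sets 14.0% were called higher. The pools of the ages did not overlap for 5 of the 12, all lower at 24 months, where 16.1% of all tested probe sets were lower and 27.2% higher without overlap. The median change of the 12 was -0.42, beside 0.06 for all tested probe sets. Since the members were chosen with earlier results of these data known, no test was made of the list.

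**Figure D1:**
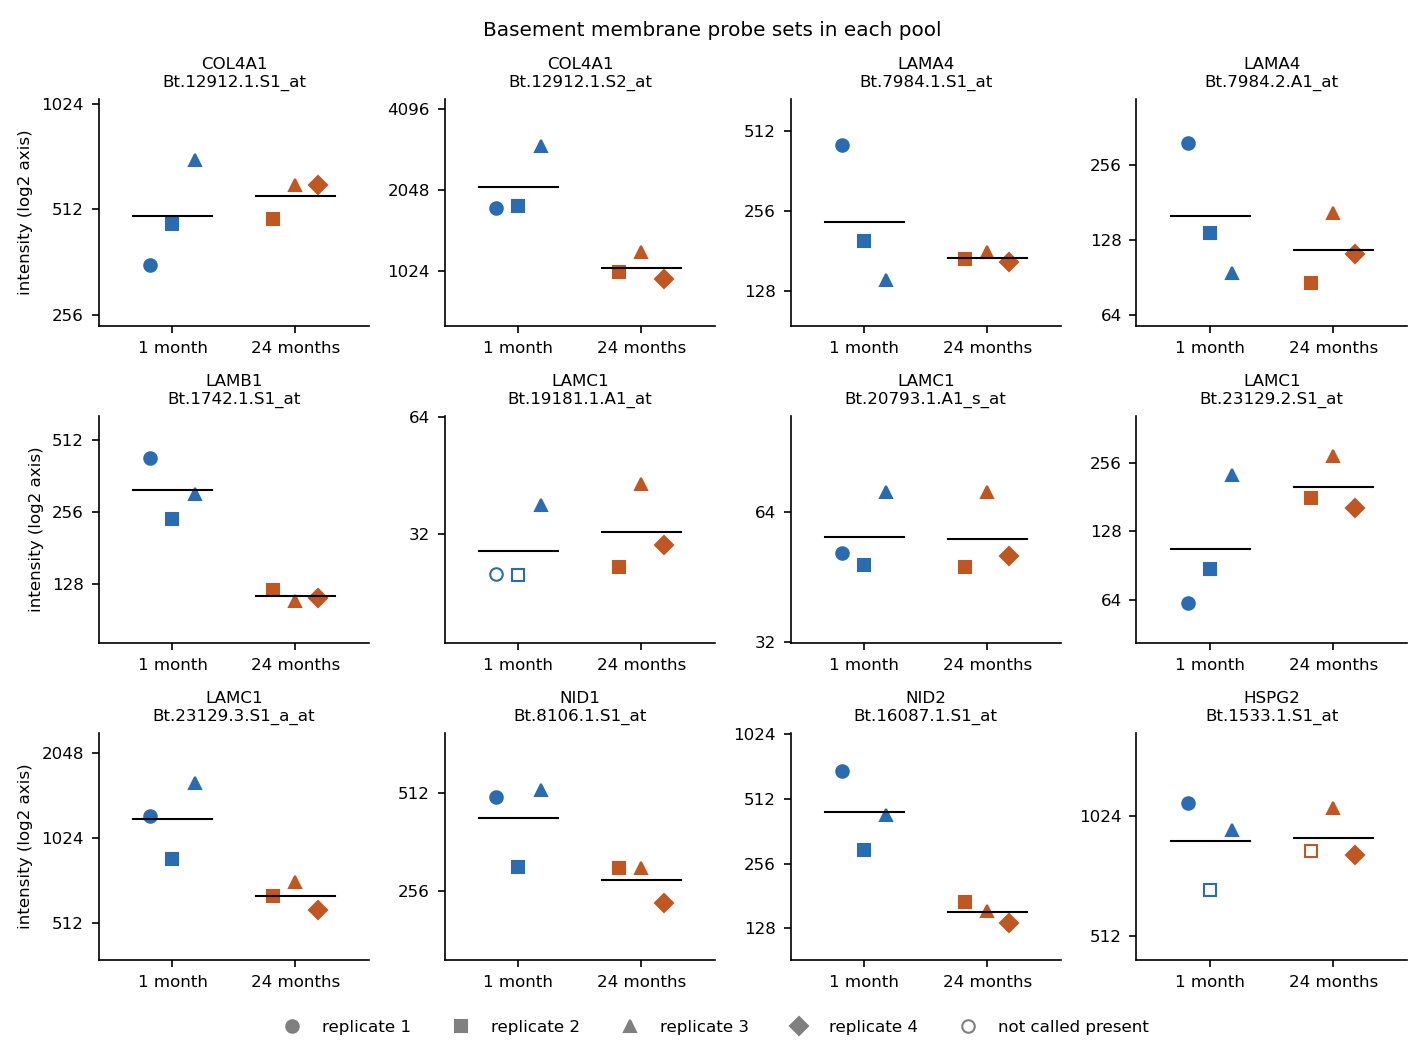
Intensity of the 12 tested probe sets in each pool, on a log2 axis that differs between panels. Each symbol is 1 pool, its shape gives the replicate number, open symbols were not called present, and bars are geometric means; COL4A1 (Bt.12912.1.S2_at), LAMB1, LAMC1 (Bt.23129.3.S1_a_at), NID1 and NID2 show no overlap between the ages.

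The arrays differed in ways that accompany these changes. The share of probe sets called present was 48.9% to 52.5% at 1 month and 54.8% to 56.4% at 24 months. The actin control's ratio of 3' to 5' signal on the log2 scale, which is higher in degraded RNA, was 0.85, 0.69 and 0.46 in 1-month pools 1, 2 and 3, and 0.22 to 0.26 at 24 months (exact two-sided permutation p = 0.1, the smallest that 3 against 3 pools allow). In the second table that the authors deposited, this ratio was -0.30 to -0.17 at 1 month and -0.26 to -0.16 at 24 months. A fit with the actin ratio of the main table as a covariate is quoted below. That ratio does not overlap between the ages, so it and age share much of their variation. The fit cannot fully separate them, and the part of these differences in the results below was not otherwise tested. Skeletal muscle fibre markers were bright on all arrays, with 7 of the 8 tested above 0 in change and 4 called higher (MYH7, TNNT1, TNNT3 and MB). Of all genes tested 11.3% were called higher. ACTA1 (-0.01 ± 0.11), CKM (0.17 ± 0.12), MYH1 (0.26 ± 0.14) and DES (0.58 ± 0.29) were not called. The summed intensity of the 8 markers was 50021 to 51619 at 1 month and 68830 to 70478 at 24 months.

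The basement membrane is made by several cell types, and in bulk tissue fewer cells of a type and less RNA per cell cannot be told apart. Of the endothelial markers 5 were tested, all 5 had a change below 0 and 2 were called lower, PECAM1 (-0.70 ± 0.19) and TEK (-0.80 ± 0.18). Of all genes tested 5.73% were called lower. The summed intensity of the 5 markers was 1186 to 1920 at 1 month, highest in pool 3, and 805 to 895 at 24 months. A dimmer PECAM1 probe set gave -0.26 ± 0.25 (limma adjusted p = 0.493), with overlap between the ages. VWF, KDR and TIE1 had no present call on the 6 arrays. Of 6 pericyte and smooth muscle markers 4 had a change below 0, and RGS5 alone was called lower (-0.93 ± 0.25). CNN1 (0.31 ± 0.14) and PDGFRB (0.11 ± 0.12) went the other way without a call, and the median change of the 6 was -0.08. The sums of the 6 overlapped, at 1237 to 3217 at 1 month and 1356 to 1764 at 24 months. Of 7 fibroblast markers 6 had a change below 0, 0 were called lower by limma (1 at an unadjusted p under 0.05) and THY1 was called higher (1.07 ± 0.15). Their sum was 23832 in 1-month pool 1, 6784.5 and 8195.5 in the other 1-month pools, and 5754 to 7463 at 24 months. Of the erythroid markers HBB, a haemoglobin chain, alone was tested and was called lower, reading 2403, 2405 and 132.5 at 1 month and 29.0 to 30.9 at 24 months. The part of any of these cell types in the members' changes was not tested.

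COL4A1 encodes the alpha-1 chain of the collagen IV network, and 2 probe sets measured it. The intensity of the brighter one (Bt.12912.1.S2_at) was 1746, 1779.5 and 2976 in 1-month pools 1, 2 and 3, and 1012, 1200.1 and 953 in 24-month pools 2, 3 and 4. All 24-month pools lay below all 1-month pools, and pool 3 stood highest at 1 month. The change was -0.99 ± 0.23 (95% interval -1.54 to -0.44, limma adjusted p = 0.0292), which is 1.98-fold lower. The call was lost without 24-month pool 2, 3 or 4 (adjusted p = 0.107, 0.0819 and 0.117), while the change stayed between -1.12 and -0.74 with any 1 pool left out. With the actin ratio as a covariate the change was -1.87 ± 0.30 and stayed called (adjusted p = 0.0266).

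The dimmer COL4A1 probe set (Bt.12912.1.S1_at) gave 355, 465 and 706 at 1 month, against 482, 603 and 602.5 at 24 months. These pools overlapped, with the lowest and the highest value both at 1 month. The change was 0.19 ± 0.25 (interval -0.41 to 0.78, limma adjusted p = 0.628). In the second deposited table the same probe set read 179.9, 279 and 567 at 1 month against 118.5, 106 and 112 at 24 months, without overlap. There its change after quantile normalization was -1.26 ± 0.37 (limma adjusted p = 0.0610), the opposite direction. The brighter probe set fell in both tables, by 1.44 in the second (adjusted p = 0.0188). Without 1-month pool 1 the dimmer probe set gave -0.03, also turned in sign.

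**Figure D2:**
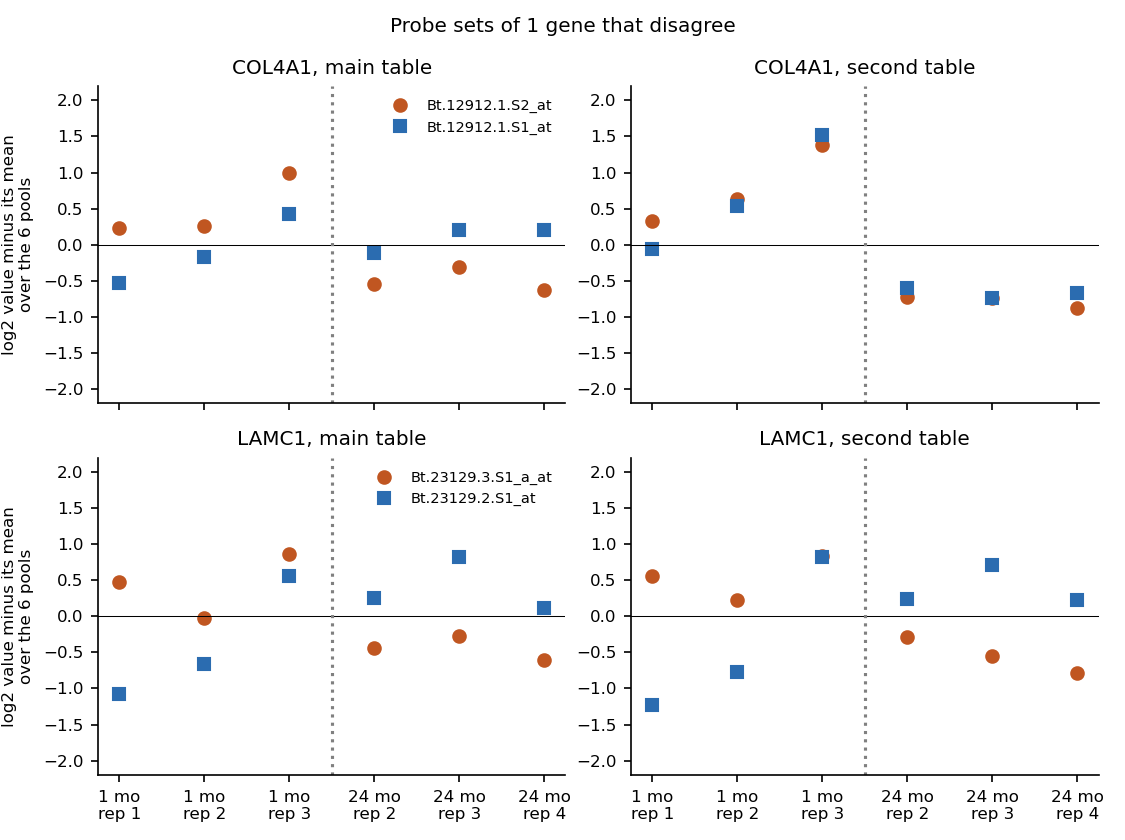
COL4A1 and LAMC1 probe sets in the main table (left) and the second deposited table (right), as log2(intensity + 16) minus its mean over the 6 pools; each point is 1 pool. Centring fixes the gap between paired probe sets to be equal and opposite at the ages, so only their changes can be compared. In the main table the changes were -0.99 and 0.19 for COL4A1 and -0.88 and 0.79 for LAMC1. In the second table, plotted without further normalization, they were -1.56 and -1.34 for COL4A1 and -1.08 and 0.78 for LAMC1. The brighter LAMC1 probe set stayed called lower there.

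Laminin beta-1, LAMB1, is the beta chain shared by the laminins of fibres and of vessels. Its probe set (Bt.1742.1.S1_at) read 431, 239.7 and 305.5 at 1 month, against 121, 108 and 112 at 24 months. The ages did not overlap, the 24-month pools lay close together, and pool 1 stood highest at 1 month. The change was -1.36 ± 0.21 (interval -1.86 to -0.86, limma adjusted p = 0.00887), or 2.57-fold lower, and this was the smallest p among the members. The call was lost without 24-month pool 3 or 4 (adjusted p = 0.0504 and 0.0519) and kept without each other pool, with changes of -1.55 to -1.15. With the actin covariate the change was -0.91 ± 0.40 (adjusted p = 0.203).

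LAMC1, the gamma chain of most laminins, had 6 probe sets. The brightest (Bt.23129.3.S1_a_at, of a type that matches several transcripts of 1 gene) read 1219, 862.5 and 1601 at 1 month, against 639.6, 716.5 and 568 at 24 months. All 24-month pools lay below all 1-month pools, with pool 3 again highest at 1 month. The change was -0.88 ± 0.23 (interval -1.43 to -0.33, limma adjusted p = 0.0415), or 1.84-fold lower. The call was lost without 1-month pool 1 (adjusted p = 0.0704) and without each 24-month pool (0.106 to 0.149), and with the actin covariate (-1.40 ± 0.44, 0.105).

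A dimmer LAMC1 probe set of the same sequence cluster (Bt.23129.2.S1_at) went the other way without passing. It read 62.0, 87.9 and 226 at 1 month and 179, 274 and 162 at 24 months, so that 1-month pool 3 lay among the 24-month pools. The change was 0.79 ± 0.42 (interval -0.21 to 1.78, limma adjusted p = 0.224). Without 1-month pool 3 it was 1.26 ± 0.25 and was called higher (adjusted p = 0.0156), and with the actin covariate it turned to -1.06 ± 0.38 (0.138). In the second table it stayed above 0, at 0.86 ± 0.51 (0.300), unlike the dimmer COL4A1 probe set. Whether the 2 probe sets of a gene differ in their change was not tested.

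The other LAMC1 probe sets were dim. Bt.20793.1.A1_s_at, of a type that can match several genes, read 48.2 to 71.2 at 1 month and 47.6 to 71.1 at 24 months. Its change was -0.01 ± 0.19 (limma adjusted p = 0.969). Bt.19181.1.A1_at was called present on 1 of 3 arrays at 1 month and on 3 of 3 at 24 months, and gave 0.11 ± 0.18 (limma adjusted p = 0.707). Bt.19181.2.S1_at and Bt.25008.1.A1_at, the 2 probe sets not tested, were called present on 0 of the 6 arrays and are given no fold.

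LAMA4, the vessel-type laminin alpha chain, did not pass on either of its probe sets. Bt.7984.1.S1_at read 453, 197 and 140.5 at 1 month, against 169, 179 and 164 at 24 months. The 24-month pools lay close together, whereas 1-month pool 1 stood above all the others and 1-month pool 3 below them. The change was -0.42 ± 0.37 (interval -1.31 to 0.46, limma adjusted p = 0.457). Bt.7984.2.A1_at showed the same order at 1 month, with 317, 136 and 93.8, and read 86.0, 164 and 113 at 24 months. Its change was -0.41 ± 0.42 (interval -1.40 to 0.57, limma adjusted p = 0.517). Both probe sets rested on 1-month pool 1: without it the changes were 0.03 ± 0.17 and 0.04 ± 0.27. With the actin covariate they were 1.20 ± 0.36 and 1.15 ± 0.58, not called.

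NID2, a nidogen that binds laminin and collagen IV and is abundant in vessel walls, had the largest change among the members. Its probe set (Bt.16087.1.S1_at) read 694, 296 and 430.1 at 1 month, against 170.2, 155 and 136 at 24 months. The ages did not overlap, and the 1-month pools spread more than the 24-month pools. The change was -1.45 ± 0.29 (interval -2.13 to -0.77, limma adjusted p = 0.0185), or 2.73-fold lower. The call was lost without 24-month pool 2, 3 or 4 (adjusted p = 0.0657, 0.0770 and 0.0821) and kept without each 1-month pool. With the actin covariate the change was -0.84 ± 0.56 (adjusted p = 0.385).

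NID1, the nidogen found in nearly all basement membranes, read 497, 303 and 523 at 1 month, against 299.7, 301.5 and 234 at 24 months (Bt.8106.1.S1_at). The ages did not overlap, but 1-month pool 2 lay only just above 2 of the 24-month pools. The change was -0.61 ± 0.23 (interval -1.15 to -0.06, limma adjusted p = 0.108). It was called lower without 1-month pool 2 (-0.85 ± 0.16, adjusted p = 0.0254), with quantile normalization (-0.70 ± 0.19, adjusted p = 0.0487) and in the quantile-normalized second table (-1.32 ± 0.17, adjusted p = 0.00604). In the second table the intensities were 255.5, 221 and 283 at 1 month against 102, 79.9 and 80.3 at 24 months. NID1 was called in 1 of the 6 fits that leave out 1 pool and in 3 of the 11 other alternatives. With the actin covariate the change was -0.78 ± 0.49 (limma adjusted p = 0.350). With the replicate number as a block it was -0.39 ± 0.27 (limma adjusted p = 0.423).

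The nidogens were set against each other within each pool, because that comparison cancels what an array does to all its signals alike. It does not cancel an effect that differs between probe sets. The log2 value of NID1 minus that of NID2 was -0.47, 0.03 and 0.27 in the 1-month pools and 0.76, 0.90 and 0.72 in the 24-month pools. All 24-month pools lay above all 1-month pools, a shift of 0.85 from -0.05 ± 0.38 (SD, n = 3) to 0.79 ± 0.09 (SD, n = 3). The two-sided exact permutation p was 0.1, the smallest that 3 against 3 pools allow, so the test cannot pass at 0.05. In the quantile-normalized second table the shift was 0.62 (exact permutation p = 0.3), and without 24-month pool 3 it was 0.79 (exact permutation p = 0.2). The shift was not computed with the actin covariate. In that fit NID1 gave -0.78 ± 0.49 and NID2 -0.84 ± 0.56 (limma adjusted p = 0.350 and 0.385).

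Perlecan, the heparan sulphate proteoglycan encoded by HSPG2, showed no called change. Its probe set (Bt.1533.1.S1_at) read 1099, 668.5 and 941 at 1 month, against 837, 1073 and 817 at 24 months. The ages overlapped throughout. The change was 0.03 ± 0.21 (interval -0.48 to 0.53, limma adjusted p = 0.938). Pool 2 of each age was called absent despite these intensities, and the detection p-values that the authors deposited for the 1-month pools were 0.0142, 0.0806 and 0.0303. In the second table the direction turned, at -0.57 ± 0.33 (limma adjusted p = 0.294).

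**Figure D3:**
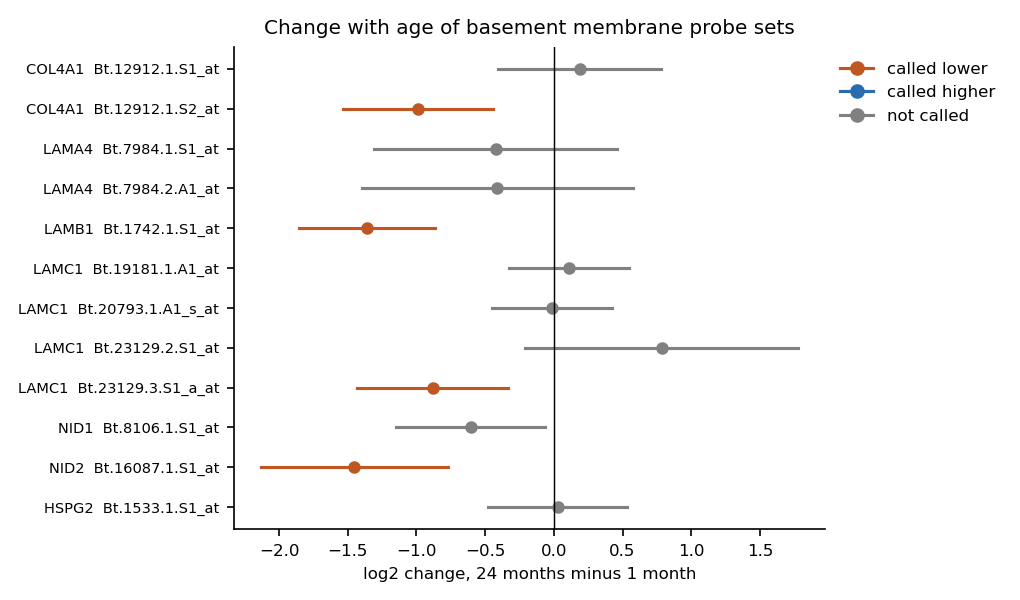
Log2 change with age (24 months minus 1 month) of the 12 tested probe sets, with 95% intervals of the limma fit. The called falls lie between -1.45 (NID2) and -0.88 (LAMC1), and the intervals of the LAMA4 and HSPG2 probe sets span 0.

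The members differed in which of the 1-month pools stood highest. Pool 1 was the highest 1-month pool for 5 of the 12 probe sets, namely those of LAMA4, LAMB1, NID2 and HSPG2. Pool 3 was the highest for the other 7, namely those of COL4A1, LAMC1 and NID1, and pool 2 for 0. At 24 months pool 3 was the highest for 10 of the 12. Probe sets of 1 gene were counted separately here. The same counts were not made over all tested probe sets, so they are not shown to be particular to the members. The log2 SD between pools was 0.23 to 0.85 at 1 month and 0.06 to 0.41 at 24 months. It was larger at 1 month for 10 of the 12 (83.3%), beside 80.6% of all tested probe sets, so that share was close to the array's.

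The genes nearest to the mean profile of the members were found by the root mean square distance between log2 profiles over the 6 pools, each centred on its own mean. The mean profile of the 7 members' brightest probe sets was set against 6352 other tested genes, leaving out those whose symbol is only a locus number. That mean had a change of -0.81, while its members ranged from -1.45 (NID2) to 0.03 (HSPG2), so it does not describe each member. The nearest were GUCY1B1, a subunit of soluble guanylate cyclase (distance 0.053), and FLNA, the actin cross-linker filamin A (0.068). C18H19orf48 (0.069), ZCCHC3 (0.091) and KDELR1, a receptor that returns proteins to the endoplasmic reticulum (0.093), followed. These distances describe 6 pools and carry no test.

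Related genes were counted from lists of 67 genes, on the brightest tested probe set of each. Of these, 33 genes were tested, 4 were called higher and 3 lower. The median change was -0.32, beside 0.03 for all 6423 genes tested, of which 11.3% were called higher and 5.73% lower. The called genes went both ways, and 22 of the 33 had a change below 0.

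Among 7 other chains and associated matrix proteins 1 was called. SMOC2, a calcium-binding matricellular protein of basement membranes, read 175, 58.2 and 92.7 at 1 month and 281, 355 and 250.2 at 24 months. It rose by 1.42 ± 0.34 (limma adjusted p = 0.0309), and its dimmer probe set rose by 1.02 ± 0.22 (0.0242). The brighter one lost its call without 1-month pool 2 (0.0502) and without each 24-month pool (0.0874 to 0.121). LAMB2, the beta chain enriched at the neuromuscular junction, gave -0.62 ± 0.26 (limma adjusted p = 0.142), without overlap between the ages. Whether it differs from LAMB1 in its change was not tested. SPARC, a collagen-binding matricellular protein, gave -1.59 ± 0.52 (limma adjusted p = 0.0754). Its intensity was 5072 in 1-month pool 1, 1087 and 1616 in the other 1-month pools, and 589, 783 and 680 at 24 months, without overlap. COL15A1, a collagen that anchors basement membranes to the surrounding matrix, gave 0.15 ± 0.58.

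Of 7 receptors and linkers 1 was called. SGCA, the alpha-sarcoglycan of the dystrophin complex, read 317, 344 and 271.5 at 1 month and 776, 755 and 562 at 24 months. It rose by 1.12 ± 0.17 (limma adjusted p = 0.00872), with no overlap, and lost its call only without 24-month pool 3 (0.0505) among the 6 fits that leave out 1 pool. DAG1, the laminin receptor dystroglycan, gave 0.30 ± 0.13 (limma adjusted p = 0.154). ITGA7, the main laminin-binding integrin alpha chain of muscle, gave 0.07 ± 0.18 (0.794), and its partner ITGB1 gave -0.65 ± 0.26 (0.125). ITGB1 was called lower without 1-month pool 2 (-0.95 ± 0.14, 0.0162). DAG1 turned in sign in the second table (-0.03), and ITGA7 there (-0.06) and with quantile normalization (-0.03).

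Enzymes that build the sugar chain by which dystroglycan holds laminin went both ways. Of 6 tested, B4GAT1, a glucuronyltransferase, rose by 1.00 ± 0.27 (limma adjusted p = 0.0447), and DPM3, a subunit of dolichol-phosphate mannose synthase, fell by 0.72 ± 0.16 (0.0237). Both lost their calls without each 24-month pool (adjusted p up to 0.140 and 0.107). B4GAT1 lost its call also without 1-month pool 1 (0.0516) and DPM3 without 1-month pool 2 (0.0522).

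Of 7 genes of collagen assembly and modification PLOD1, a lysyl hydroxylase, alone was called, with a rise of 0.51 ± 0.14 (limma adjusted p = 0.0472). Its other probe set gave -0.58 ± 0.32 (0.234), and the call was kept only without 1-month pool 1 among the fits that leave out 1 pool (elsewhere up to 0.174). SERPINH1, the collagen chaperone, read 805 in 1-month pool 1 and 103 to 262 in the other 1-month pools, and gave -0.97 ± 0.62 (0.303).

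Of 6 turnover genes 2 were called lower. MMP2, a gelatinase that cleaves collagen IV, fell by 0.91 ± 0.23 (limma adjusted p = 0.0350), from 389, 211 and 286.5 to 125, 164 and 149, without overlap. TIMP4, a tissue inhibitor of metalloproteinases, fell by 0.61 ± 0.17 (0.0493), and its dimmer probe set gave -0.30 ± 0.19 (0.303). MMP2 lost its call without each 24-month pool (0.0955 to 0.130). TIMP4 kept its call only without 1-month pool 1 among these fits (elsewhere up to 0.171). MMP9 and MMP14 had a present call on 0 of the 6 arrays.

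Of the 7 related genes called, B4GAT1 alone kept its call with the actin covariate. SGCA then gave 1.35 ± 0.34 (limma adjusted p = 0.0654) and SMOC2 2.12 ± 0.66 (0.102), while DPM3 gave -0.22 ± 0.24 (0.599) and MMP2 -0.58 ± 0.46 (0.474). B4GAT1 lost its call with quantile normalization (0.0722) and in the second table (0.114 with quantile normalization), and SMOC2 in the second table without it (0.0765). Of the 11 alternatives that leave out no pool, PLOD1 was called in 2 and TIMP4 in 3 (adjusted p up to 0.462 and 0.149).

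**Figure D4:**
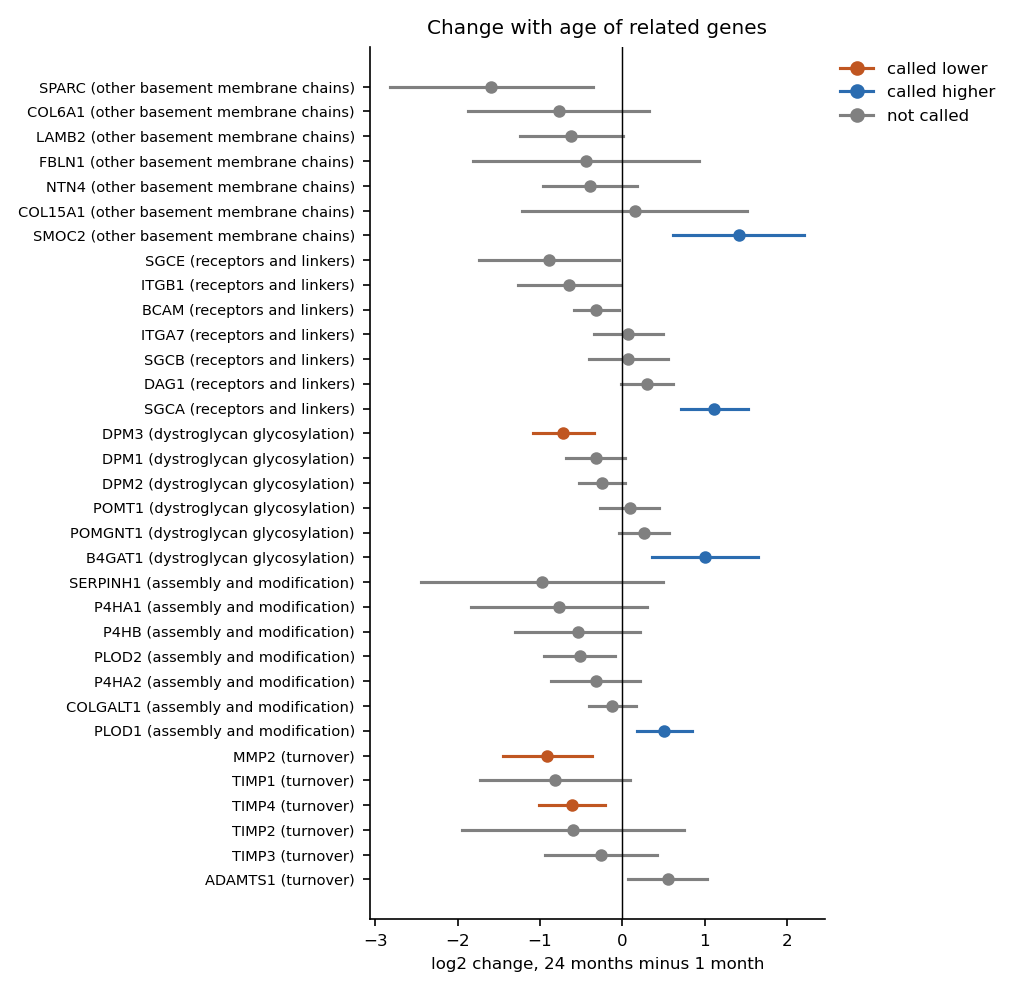
Log2 change with age (24 months minus 1 month) and 95% interval of the 33 tested related genes, grouped by role, on the brightest tested probe set of each. SMOC2, SGCA, B4GAT1 and PLOD1 were called higher and DPM3, MMP2 and TIMP4 lower.

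How far the choice of pools and settings carried the members' calls is shown by the plot of changes under each alternative. COL4A1, LAMB1, LAMC1, NID1 and NID2 stayed below 0 on their brightest probe sets under all 17 alternatives. Their calls did not. In the fits without 24-month pools 2, 3 and 4, the calls over the whole array numbered 689, 586 and 526 instead of 2513. Member probe sets called lower numbered 3, 5 and 4 without 1-month pools 1, 2 and 3. Over the whole array 715, 792 and 1025 of 13204 probe sets were called lower in these fits, against 659 with all pools. At an unadjusted p under 0.05 the limma fits without 24-month pools 3 and 4 each had 4 member probe sets lower. The share of all probe sets at that threshold is not given for these fits.

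**Figure D5:**
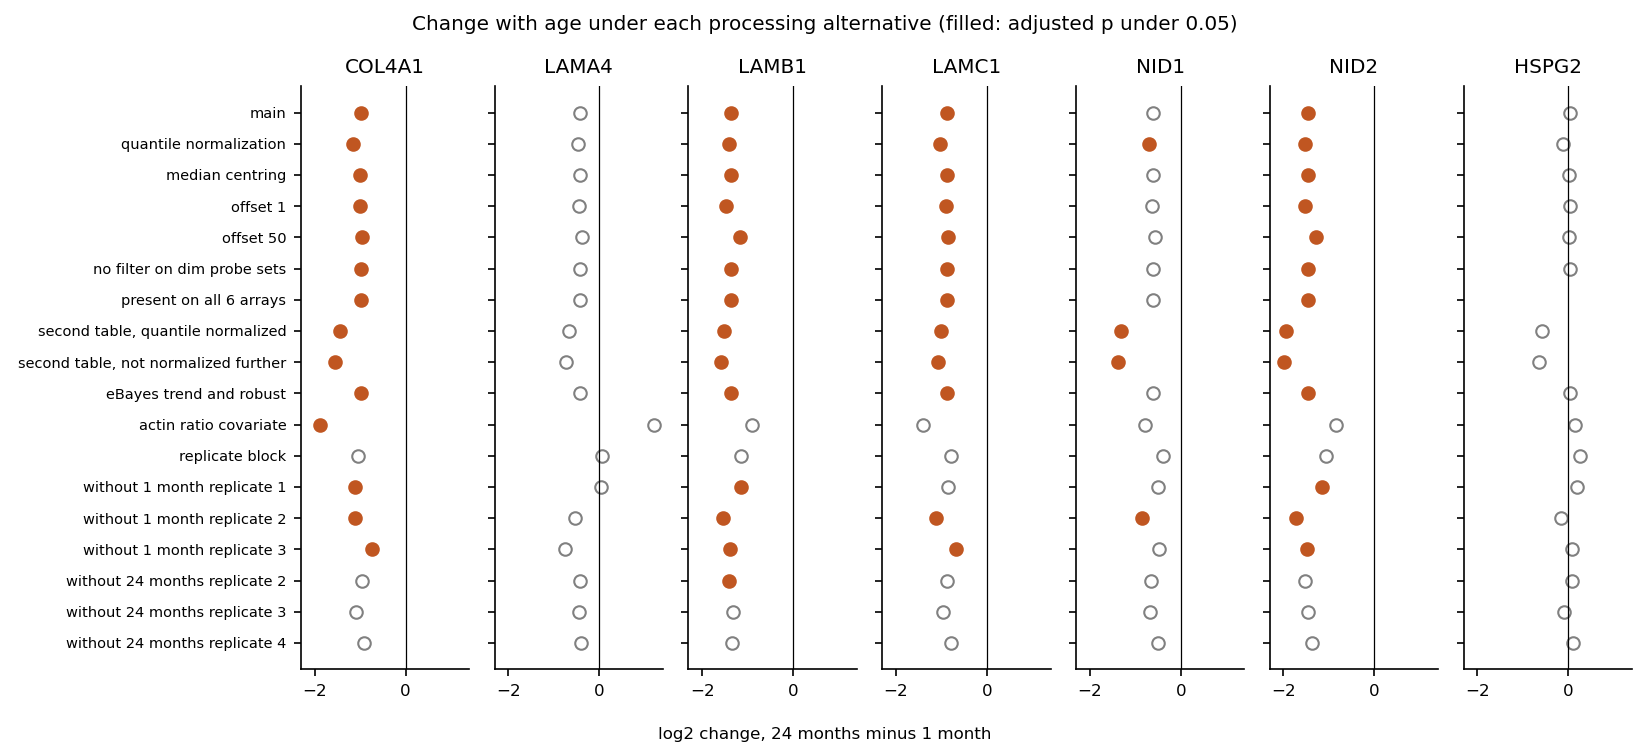
Log2 change with age of the brightest probe set of each gene under each alternative; filled points have an adjusted p under 0.05. The points of COL4A1, LAMB1, LAMC1, NID1 and NID2 lie left of 0 throughout, while those of LAMA4 and HSPG2 fall on both sides.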

How the data were processed

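Pooled RNA was measured on Affymetrix bovine arrays, 3 per age; the labels' protocols name Trizol extraction, RNeasy purification and biotin labelling. The main table (its name refers to dChip) holds linear intensity values that the authors normalized before they deposited them, with a detection call per array and, for the 1-month arrays, a detection p-value as deposited. How the values were background-corrected, modelled and normalized is not stated in the labels or headers. A second deposited table holds intensity values of the same arrays on a linear scale, with medians of 15.4 to 21.2 per array and unknown normalization. Columns were matched to pools by title.

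Probe sets were named from the platform annotation. All 14 member probe sets matched their gene in the RefSeq table of assembly ARS-UCD2.0 and 0 symbols changed. No further normalization was applied, since the array medians of log2 values lay within 0.0308 (limit 0.2). The 112 control probe sets were left out. The age coefficient was fitted on log2(intensity + 16) with limma 3.58.1 (lmFit, eBayes) in R 4.3.3 without covariates, a script tested on simulated data. Alternatives were quantile normalization, median centring, offsets of 1 and 50, other filters, the second table, a trended robust variance, the actin ratio as covariate, the replicate number as a block and leaving out each pool. Named beside the members were related genes that passed, the receptors ITGA7, ITGB1 and DAG1, and the 5 genes nearest in profile; other related genes were chosen after their values were seen. With arrays, precision is limited by their number. The members, lists, rule and tests were chosen with earlier results of these data known.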

Additional observations from a re-analysis of the deposited data

How the results depend on the processing

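Over the array the number of called probe sets moved from 2513 to 1641 and 1169 in the second table with and without quantile normalization, to 996 with the actin covariate and to 129 with the replicate block, and ranged from 526 to 3476 with 1 pool left out. Of the calls 61.9% and 56.3% were rises in the second table and 88.4% with the block, against 73.8%. Member probe sets called lower numbered 1 with the actin covariate and 0 with the block by limma (4 at an unadjusted p under 0.05). With 1 pool left out 0 to 5 were called lower and 0 to 1 higher. Over the whole array 341 probe sets were called lower with the covariate, 15 with the block and 94 to 1025 with 1 pool left out. Called related genes numbered 3 in the second table without further normalization, 4 with the actin covariate, 1 with the block and 0 to 8 with 1 pool left out. The actin ratio does not overlap between the ages, so the covariate and age share much of their variation. The cause of these moves was not tested.

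Only the numbers 2 and 3 occur at both ages and the labels do not say that they pair pools; the correlation of deviations from the age means was -0.18 for number 2 and 0.04 for number 3. With the number as a block 1-month pool 1 and 24-month pool 4 have no partner, so the age change rests on 4 pools, which by itself leaves fewer degrees of freedom.

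Of 202 recomputed member values 155 kept their direction and their side of the threshold, 19 lost the call, 5 gained one and 23 turned in sign. Sign turned for Bt.12912.1.S1_at of COL4A1 in the second table (-1.26, and -1.34 without normalization), with the actin covariate (-0.87), with the block (-0.086) and with a pool left out (-0.034 to 0.45). LAMA4 turned with the covariate (1.20 and 1.15), with the block (0.057 and 0.069) and with a pool left out (-0.76 to 0.031 and -0.76 to 0.044). LAMC1 turned on Bt.19181.1.A1_at (-0.39) and Bt.23129.2.S1_at (-1.06) with the covariate and on Bt.20793.1.A1_s_at with quantile normalization (0.0015); with a pool left out these gave -0.031 to 0.24, 0.44 to 1.26 and -0.15 to 0.12. HSPG2 turned with quantile normalization (-0.12), in the second table (-0.57 and -0.64) and with a pool left out (-0.17 to 0.18). ITGA7 turned with quantile normalization (-0.027), in the second table (-0.059 and -0.12), with the covariate (-0.57), with the block (-0.0070) and with a pool left out (-0.060 to 0.24), and DAG1 in the second table (-0.028 and -0.12). The planned shifts of COL4A1 against COL4A2 and of LAMA2 against LAMA4 were not run, because COL4A2 and LAMA2 had no probe set, nor was the planned search of promoter motifs, for which no sequence was used here. Signal near background limits the dim LAMC1 probe sets.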
